A study of Homo sapiens with 4 samples.

Results

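MicroRNA locus features are rows of an expression table that carry the name of a microRNA gene, such as MIR198 or MIRLET7D, and stand for a hairpin of about 80 bases in the genome. They were chosen here by name, as features that start with MIR or MIRLET followed by a number, without antisense (AS) or host gene (HG) names and 1 further feature left out by name, and by a mean of at least 1 TPM, a level per feature length that is scaled to the same total in each library, over the 4 libraries. The rule kept 189 of the 461 features with such names, or 41.0%, among 20457 features in all. The other 272 lay below 1 TPM, and 86 of them were at 0 in every library. The mean level was therefore what chose the members, and the levels are given as a description. Just inside the limit stood MIR4469, MIR548AU and MIR484, at means of 1.004, 1.013 and 1.020 TPM, and just outside it MIRLET7G, MIR3145 and MIR4467, at 0.956, 0.940 and 0.938 TPM.

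The libraries came from HEK293, an established human embryonic kidney cell line, wild-type apart from the siRNA. 2 libraries were made after a control siRNA (siControl) and 2 after an siRNA against CNOT4 (siCNOT4), each at 10 nM for 72 h, from poly(A)-selected RNA and a stranded kit. Nothing in the labels says that the 2 libraries of a group came from separate cultures, so the p-values measure only the spread between these libraries, which may be technical. The question the design poses is which transcripts change in level when CNOT4, a ubiquitin ligase of the CCR4-NOT complex, is depleted.

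MicroRNA genes are transcribed as long primary transcripts, and many lie inside introns or exons of other genes. The Microprocessor, made of DROSHA and DGCR8, cuts the hairpin out of the primary transcript in the nucleus, and DICER1 trims it to a mature strand that is loaded into an AGO protein. AGO with its partners of the TNRC6 family recruits the CCR4-NOT complex to target mRNAs, which are deadenylated and decay. Mature microRNAs are short and carry no poly(A) tail, so a poly(A)-selected library samples only longer transcripts that contain the hairpin's bases. The values below are levels of such longer RNA over the hairpin, not of the mature microRNA.

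The targeted gene, CNOT4, stood at 6.43 and 4.73 TPM in siControl and 3.38 and 3.81 TPM in siCNOT4. Both siCNOT4 libraries lay below both siControl libraries, but the log2 difference of -0.51 (SE 0.26, adjusted p = 0.18) did not pass the limma test; it did pass under both other scalings tried, median ratio scaling and quantile normalization. siControl replicate 2 stood apart in many members: on the log2(TPM + 1) scale, the members' median in siControl replicate 1 minus replicate 2 was 0.52, against -0.014 between the siCNOT4 libraries. Of 9 HEK293 markers, 8 reached a mean of 1 TPM. Both siCNOT4 libraries lay above both siControl libraries in 5 of the 9 and below in 2, against 66.4% and 10.6% of all tested features. The only HEK293 marker that passed the limma test, VIM, which encodes vimentin, was lower in siCNOT4. Its log2 difference of -1.09 (adjusted p = 0.029) kept its sign and passed under both scalings. Of 6 fibroblast markers, 2 reached 1 TPM, COL1A1 and LUM. Both passed the limma test as higher in siCNOT4, COL1A1 by 1.67 (adjusted p = 0.025) and LUM by 1.80 (adjusted p = 0.023). They also passed under both scalings. The list summed to 1.95 and 1.35 TPM in siControl and to 9.92 and 10.2 TPM in siCNOT4. COL1A2 was near 0. None of 3 blood and none of 2 endothelial markers reached 1 TPM. The part of these markers in the results below was not tested.

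The sequences below show what the hairpins with the highest levels or a called difference would yield if they were processed. Mature sequences from RefSeq (GRCh38.p14) matched 167 of the 189 members, and they held 234 distinct mature microRNAs. They are printed 5′ to 3′ with the seed, bases 2 to 8, in capitals. The first 9 belong to members described below for their level or their difference between the groups.
hsa-miR-4426: gAAGAUGGacguacuuu
hsa-miR-4709-5p: aCAACAGUgacuugcucuccaa
hsa-miR-3652: cGGCUGGAggugugagga
hsa-miR-3064-5p: uCUGGCUGuuguggugugcaa
hsa-miR-198: gGUCCAGAggggagauagguuc
hsa-miR-3655: gCUUGUCGcugcgguguugcu
hsa-miR-4751: aGAGGACCcguagcugcuagaagg
hsa-miR-3198: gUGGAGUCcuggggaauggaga
hsa-miR-147b-3p: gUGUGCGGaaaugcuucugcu

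The members were diverse in seed: only 6 seeds were held by more than 1 member. The pairs below share a seed between different microRNAs, and the remaining shared seeds were that of miR-5001-5p with miR-762 and those of the repeated loci of miR-1244 and of miR-4315.
hsa-miR-25-3p: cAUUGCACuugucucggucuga
hsa-miR-92a-3p: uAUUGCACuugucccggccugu
hsa-let-7d-5p: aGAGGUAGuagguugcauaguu
hsa-miR-4458: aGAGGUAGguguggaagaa
hsa-miR-4426: gAAGAUGGacguacuuu
hsa-miR-4647: gAAGAUGGugcugugcugaggaa

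Features this short reached their TPM with few reads. The TPM of a feature moves in steps of 1 read, and 1 read on a hairpin of 80 bases was worth 0.965 and 0.850 TPM in siControl and 1.01 and 1.03 TPM in siCNOT4. On these steps 91.7% of the values above 0 came out as whole reads within 0.02 of a read at the annotated hairpin length, and the values of 17 members were whole at another length, which was then used. The median member had 26 estimated reads over the 4 libraries together, the lowest 3 and the highest 53086, and 49 of the 189 had under 10. 143 members were above 0 in every library, and 15, 31, 5 and 10 were at 0 in siControl 1, siControl 2, siCNOT4 1 and siCNOT4 2. 152 members had a mean of at least 1 TPM in both groups, while 32 entered through siCNOT4 alone and 5 through siControl alone.

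Levels were spread over several orders of magnitude, with 23 members at 100 TPM or more, 73 at 10 TPM or more, 44 under 2 TPM and a median of 6.04 TPM. They differed by where the hairpin lies, as read from GENCODE 29 (GRCh38) with retained-intron transcripts left aside. Of 82 microRNA features that lie wholly in an exon of another gene on the same strand, 57 reached the limit (69.5%), and of 41 that lie partly in one, 35 did (85.4%). Of 243 in an intron on the same strand, 71 did (29.2%), and of 43 outside annotated genes, 7 did. On the opposite strand, 6 of 16 over an exon reached it, none above 2.03 TPM, and 1 of 15 over an intron did. The median level was 14.3 TPM wholly in exons, 23.6 TPM partly in exons and 2.84 TPM in introns. The strand setting of the counting is not given in the sources used here. Of the members wholly or partly in exons, 38 overlapped coding sequence, 19 a 5′ UTR, 16 a 3′ UTR and 19 non-coding exons. The overlap could be short, as in MIR1292 with 1.52% of its bases in an exon. A member said below to lie in a coding exon overlaps coding sequence, and need not lie in it in full.

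**Figure D1:**
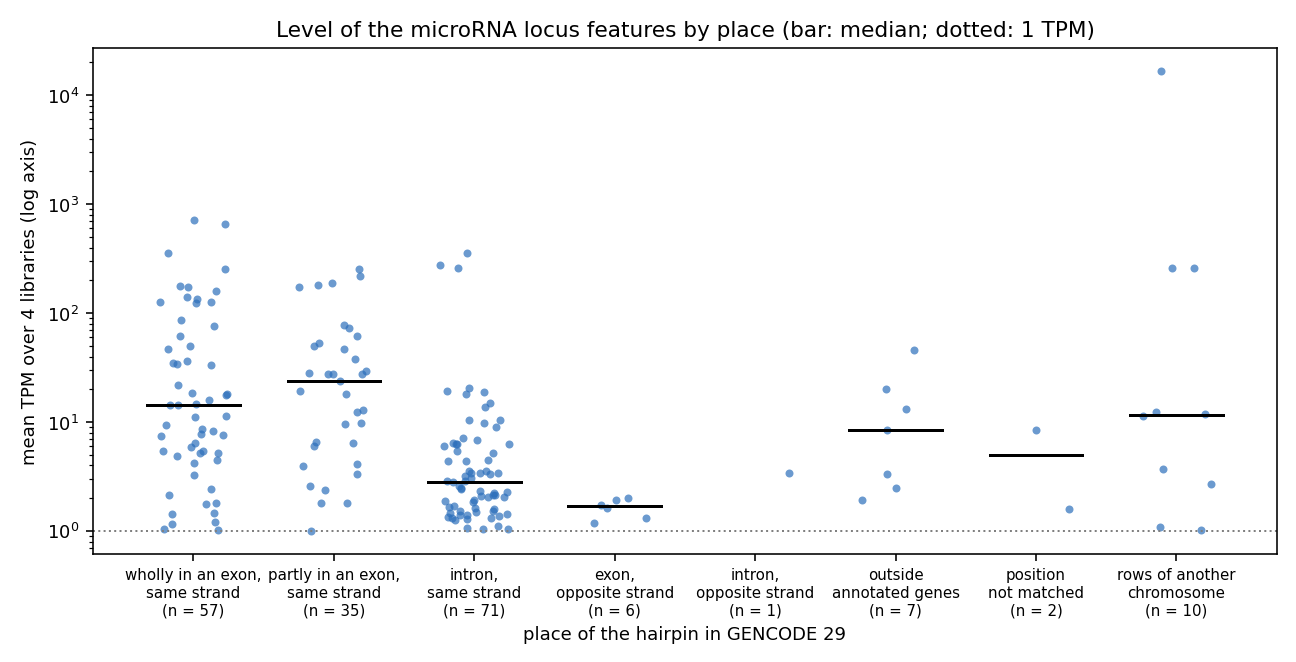
Mean TPM over the 4 libraries (log axis) of each of the 189 microRNA locus features, by the place of its hairpin in the annotation; bars are medians and the dotted line is the 1 TPM limit that chose the members. Members wholly or partly in exons had medians of 14.3 and 23.6 TPM and intronic members 2.84 TPM, with MIR4426 as the highest point at the right.

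The host genes gave the scale of these levels. 148 members had a host on the same strand in the tables, 140 hosts in all. The member's TPM was a median of 0.722 of its host's wholly in exons (51 members), 1.00 partly in exons (32) and 0.070 in introns (65). These ratios and the correlations below cover only features that reached a mean of 1 TPM, in introns 71 of 243. They are not those of all such loci. Across members, Spearman's rho between the member's and the host's level was 0.55 wholly in exons, 0.78 partly in exons and 0.20 in introns; members of 1 table share its libraries and are not independent replicates. By sequence, 69 of 156 member hairpins in the RefSeq table occurred in full in a GENCODE transcript of the same sense, 59 of them in a transcript other than a retained intron, and 12 matched transcripts of more than 1 gene over at least 90% of their bases.

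MIR4426 held the highest level of all features in every library and 69.0% of the summed TPM of the members. It stood at 15983 and 24418 TPM in siControl and 13199 and 12757 TPM in siCNOT4, or 12427 and 21552 estimated reads in siControl and 9773 and 9334 in siCNOT4 when read at a length of 60 bases, at which its values come out whole. The siCNOT4 pair lay under the siControl pair. The difference of -0.61 (SE 0.20, adjusted p = 0.083) on the log2 scale did not pass the test. With siControl replicate 1 left out it was -0.91, and with siControl replicate 2 left out it was -0.30. With siCNOT4 replicate 1 or 2 left out it was -0.63 and -0.58. GENCODE places MIR4426 at chr1:192716328-192716390, plus strand, in GRCh38, the build of all coordinates here, in a coding exon of AL136454.1, but in the deposited tables its row stands between RPS27A and MTIF2, genes of chromosome 2. The hairpin of 63 bases occurs in the coding sequence of RPS27A, which encodes a fusion of ubiquitin and ribosomal protein S27a, with 62 bases identical. The hairpin and the RPS27A transcript are shown as DNA, with the differing base in capitals; positions count from 1 at the hairpin's 5′ end, and the substitution is T3C.
MIR4426 hairpin: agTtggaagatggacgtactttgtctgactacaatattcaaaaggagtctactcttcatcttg
RPS27A transcript: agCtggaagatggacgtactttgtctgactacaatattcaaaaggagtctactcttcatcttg

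RPS27A itself stood at 2112 and 3393 TPM in siControl and 1608 and 1512 TPM in siCNOT4, with a log2 difference of -0.78 (adjusted p = 0.063). The level of MIR4426 was 7.57 and 7.20 times that of RPS27A in siControl and 8.21 and 8.44 times in siCNOT4. The pair thus kept a similar ratio in every library while both levels were highest in siControl replicate 2. Whether reads from RPS27A make up the MIR4426 value was not tested.

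Repeated and relocated loci formed a small class. MIR1244-1, MIR1244-2 and MIR1244-3, on chromosomes 2, 5 and 12, held identical values of 367 and 169 TPM in siControl and 258 and 240.0 TPM in siCNOT4, all on rows next to A2MP1 and DDX12P, and the groups overlapped. The MIR1244-1 hairpin lies in the 3′ UTR of PTMA, which encodes prothymosin alpha, a chromatin-associated acidic protein. PTMA stood at 3432 and 2873 TPM in siControl and 2309 and 2112 TPM in siCNOT4, and MIR1244 amounted to 10.7% and 5.87% of it in siControl and 11.2% and 11.4% in siCNOT4. In all, 10 members stood on rows among genes of another chromosome than the annotated one, and 5 shared their values with another member, so the 189 members held 186 distinct sets of values.

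Below MIR4426, the highest members lay mostly in exons of abundant mRNAs: of the 25 with the highest means, 13 were wholly in an exon, 6 partly, 3 in introns and 3 on rows of another chromosome. MIR4709 (chr14:74480133-74480204, minus strand) lies in a coding exon of NPC2, a lysosomal cholesterol carrier. It stood at 432 and 782 TPM in siControl and 859.8 and 779 TPM in siCNOT4. NPC2 itself stood at 161 and 198 TPM in siControl and 272 and 278 TPM in siCNOT4, and the log2 differences were 0.49 (adjusted p = 0.20) for MIR4709 and 0.62 (adjusted p = 0.053) for NPC2. MIR4709 was low in siControl replicate 1 alone, which left its groups overlapping, whereas those of NPC2 did not overlap. MIR3652 (chr12:103930425-103930555, plus strand) lies in a coding exon of the endoplasmic reticulum chaperone gene HSP90B1. It stood at 664 and 461 TPM in siControl and 748 and 741 TPM in siCNOT4. The host stood at 1124 and 1099.7 TPM in siControl and 1427 and 1400.3 TPM in siCNOT4. The differences were 0.43 (adjusted p = 0.14) and 0.35 (adjusted p = 0.080).

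The 7 members below that lie in 3′ UTRs and are among the 25 highest, MIR1244-1 apart, held higher mean levels than their hosts. These were picked for a high mean, and the trait was not particular to 3′ UTRs. Among the same 25, MIR4709 in a coding exon and MIR3656 over an exon end stood at 314% and 289% of their hosts. MIR3652 in a coding exon stood at 51.7%. MIR3658, in the 3′ UTR of the uridine-cytidine kinase gene UCK2, stood at 411 and 432 TPM in siControl and 289 and 302 TPM in siCNOT4, a difference of -0.51 (SE 0.13, adjusted p = 0.052); both siCNOT4 libraries were lower. UCK2 stood at 61.4 and 48.2 TPM in siControl and 47.6 and 48.1 TPM in siCNOT4, so that the member's mean was 699% of its host's. MIR198 (chr3:120395668-120395729, minus strand), in the 3′ UTR of FSTL1, a secreted glycoprotein gene whose transcript is a known alternative source of this microRNA, stood at 324 and 221 TPM in siControl and 238 and 229 TPM in siCNOT4. FSTL1 stood at 112 and 85.4 TPM in siControl and 86.2 and 81.8 TPM in siCNOT4, and the differences of -0.20 (adjusted p = 0.47) and -0.22 (adjusted p = 0.40) were of similar size. MIR4657, in the 3′ UTR of PURB, a nucleic acid binding protein gene, was low in siControl replicate 2 at 150.0 and 39.8 TPM in siControl and 289 and 237 TPM in siCNOT4. Its difference of 1.74 (SE 0.56, adjusted p = 0.076) stood beside 1.36 (adjusted p = 0.053) for PURB, at 33.4 and 16.0 TPM in siControl and 62.6 and 59.2 TPM in siCNOT4, with the same low library. Leaving out siControl replicate 1 moved the member's difference to 2.69 and leaving out siControl replicate 2 to 0.80. Without siCNOT4 replicate 1 or 2 it was 1.60 and 1.89.

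MIR4680, in the 3′ UTR of the translation inhibitor gene PDCD4, stood at 92.4 and 109 TPM in siControl and 146 and 194 TPM in siCNOT4. Its difference was 0.74 (SE 0.20, adjusted p = 0.057), and PDCD4, at 57.6 and 52.5 TPM in siControl and 102 and 103 TPM in siCNOT4, passed the test at 0.88 (adjusted p = 0.035). MIR4700, in the 3′ UTR of UNC119B, stood at 141 and 210.4 TPM in siControl and 153 and 133 TPM in siCNOT4, and MIR4647, in that of the sulfate donor transporter gene SLC35B2, at 78.1 and 118 TPM in siControl and 95.2 and 56.4 TPM in siCNOT4. The groups overlapped in both of these, with differences of -0.27 (adjusted p = 0.37) and -0.39 (adjusted p = 0.36). Their hosts differed the other way, UNC119B by 0.55 (adjusted p = 0.13) and SLC35B2 by 0.14 (adjusted p = 0.62).

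A further set lay wholly in coding exons. MIR611, in TMEM258, an oligosaccharyltransferase subunit gene, stood at 174 and 129 TPM in siControl and 132 and 129 TPM in siCNOT4. MIR1181, in the kinase co-chaperone gene CDC37, stood at 139 and 96.5 TPM in siControl and 128 and 147 TPM in siCNOT4. MIR1182, in FAM89A, stood at 142 and 102 TPM in siControl and 124 and 123 TPM in siCNOT4. All 3 had overlapping groups and differences of -0.20, 0.24 and 0.038, none of which passed. The hosts TMEM258, CDC37 and FAM89A differed by -0.16, 0.075 and 0.13, and none passed.

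Members that reach past an exon's edge were also abundant. MIR4721, in the mitochondrial elongation factor gene TUFM, stood at 238 and 231 TPM in siControl and 186 and 216 TPM in siCNOT4. MIR3656, over an exon end of the trafficking gene TRAPPC4, stood at 195 and 139 TPM in siControl and 210.2 and 212 TPM in siCNOT4. MIR4761 stood at 188 and 139 TPM in siControl and 196 and 203 TPM in siCNOT4. Their differences were -0.23 (adjusted p = 0.26), 0.36 (adjusted p = 0.20) and 0.30 (adjusted p = 0.25), in that order. TUFM and TRAPPC4 differed by -0.041 (adjusted p = 0.83) and 0.036 (adjusted p = 0.88). MIR3940, over an exon end of KHSRP, which encodes an RNA-binding protein that promotes processing of some microRNA precursors, stood at 228 and 107 TPM in siControl and 159.7 and 196 TPM in siCNOT4, with a low value in siControl replicate 2. MIR939, with 14.6% of its bases in an exon of the polyadenylation factor gene CPSF1, stood at 72.5 and 88.7 TPM in siControl and 69.2 and 78.0 TPM in siCNOT4. The differences of these last members were 0.18 (adjusted p = 0.70) and -0.12 (adjusted p = 0.62), while the hosts had the opposite sign, KHSRP at -0.46 (adjusted p = 0.13) and CPSF1 at 0.35 (adjusted p = 0.30).

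Most intronic members were low, and 2 were among the 6 highest members of all. MIR5047 (chr17:64501214-64501313, minus strand) and MIR3064 (chr17:64500774-64500839, minus strand) lie in DDX5, which encodes an RNA helicase that works with the Microprocessor. MIR5047 stood at 339 and 254 TPM in siControl and 396 and 433 TPM in siCNOT4. MIR3064 stood at 243 and 231 TPM in siControl and 285 and 343 TPM in siCNOT4. The host stood at 427 and 324 TPM in siControl and 499.8 and 563 TPM in siCNOT4, so the members reached 78.4% and 60.7% of it. All 3 had both siCNOT4 libraries above both siControl libraries, with differences of 0.50 (adjusted p = 0.091), 0.40 (adjusted p = 0.10) and 0.51 (adjusted p = 0.084), and all 3 turned negative under median ratio scaling. Of the 71 intronic members, 9 lie within an annotated retained-intron transcript, these 2 among them. Those 9 had a median of 11.7% of their host's level, and the other 62 a median of 6.61% where a host was in the tables. Both medians cover only loci kept by the 1 TPM limit.

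**Figure D2:**
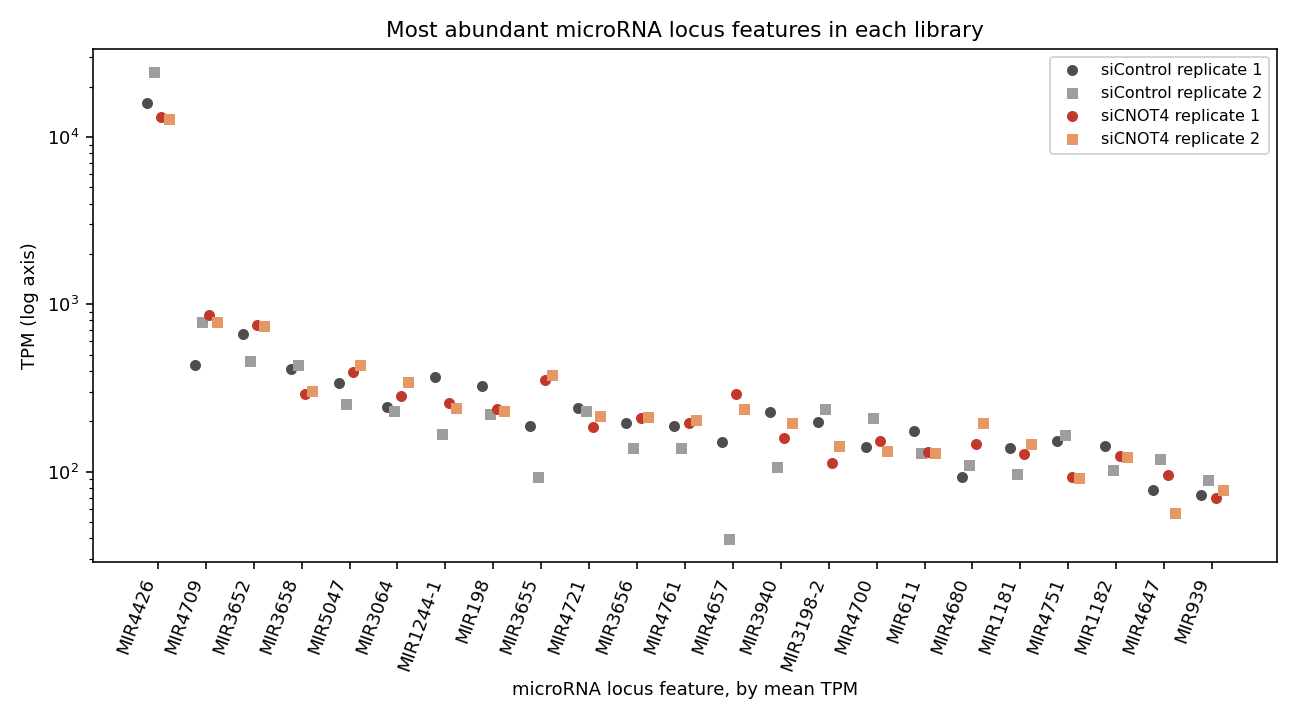
TPM (log axis) in each of the 4 libraries for the microRNA locus features with the highest means, with MIR1244-1 standing for its identical copies. MIR4426 lies far above the rest at 12757 to 24418 TPM, and siControl replicate 2 is the low point of MIR4657, MIR3655 and MIR3940.

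8 loci of well-studied microRNA families had means from 1.21 to 20.4 TPM. MIR25 and MIR106B, in an intron of the replication helicase gene MCM7, had means of 19.2 and 1.68 TPM, on 83 and 7 reads. MIR92A1, of the miR-17-92 cluster in MIR17HG, had a mean of 1.21 TPM against 3.03 TPM for that host. MIRLET7D had 6.86 TPM, MIR7-1 in HNRNPK 8.63, MIR196A1 in HOXB7 20.4, MIR29C 4.49 and MIR34A, a p53 target, 1.48. None of these 8 passed the test between the groups. 5 members overlap a small nucleolar or Cajal body RNA on the same strand: MIR1248 (SNORA81), MIR3653 (SNORD125), MIR644B (SNORA36A), MIR3651 (SNORA84) and MIR1291 (SNORA2C), with means from 1.40 to 14.9 TPM.

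DGCR8, the Microprocessor subunit whose own mRNA carries hairpins that the Microprocessor cuts, holds 2 members. MIR3618 stood at 10.5 and 3.86 TPM in siControl and 14.7 and 28.0 TPM in siCNOT4. MIR1306, in a coding exon, stood at 40.9 and 32.8 TPM in siControl and 42.9 and 71.4 TPM in siCNOT4. DGCR8 stood at 27.7 and 21.6 TPM in siControl and 30.6 and 39.5 TPM in siCNOT4. Both siCNOT4 libraries were above both siControl libraries in all 3, but the differences of 1.51 (adjusted p = 0.081), 0.58 (adjusted p = 0.17) and 0.49 (adjusted p = 0.18) did not pass.

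Between the groups, 22 of the 189 members (11.6%) passed the limma test at an adjusted p under 0.05, 19 higher (10.1%) and 3 lower (1.59%) in siCNOT4. Among all 14208 features tested, 12.6% passed, 11.3% higher and 1.3% lower, so the members' share was near the background. Both siCNOT4 libraries lay above both siControl libraries in 78 members (41.3%) and below in 11 (5.82%), against 66.4% and 10.6% of all features; the groups did not overlap in 47.1% of the members and 77.1% of all features. At an unadjusted p under 0.05, 60 members (31.7%) passed, against 42% of all features. The median log2 difference was 0.50 in the members and 0.50 in all features, and 76.2% and 81.2% of them were positive. The split of calls depended on scaling: with median ratio scaling, which moved the median of all features to 0.0022, members passed 8 higher and 7 lower, and with quantile normalization, median 0.019, 6 higher and 10 lower. Over all features the calls were 89.7% higher, and those scalings gave 631 higher with 603 lower and 1010 higher with 1169 lower. None of the 22 changed sign under either scaling, but 10 and 9 of them still passed. Over all alternatives run for them, 2 of the 22, MIR2110 and MIR3939, kept passing in each, and the other 20 lost the call in at least 1. Both of the 2 had reached the limit of 1 TPM through siCNOT4 alone. A difference was thus built into their choice, and their passing throughout is no support for a change.

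Single libraries moved the differences, and which members passed also depended on the library left out. Without siControl replicate 1 or 2, the members' median difference was 0.74 and 0.22, against 0.71 and 0.29 over all features. Without siCNOT4 replicate 1 or 2 it was 0.49 and 0.53, against 0.53 and 0.48 over all features. The spread between replicates was larger in the members than over all features: the SD of the log2 difference between replicates was 1.01 in siControl and 0.889 in siCNOT4, against 0.477 and 0.202 for all features. By reads, 10 of 80 members under 20 reads passed (12.5%, all higher), 9 of 64 with 20 to 99 (8 higher, 1 lower), and 3 of 45 with 100 or more (1 higher, 2 lower). The median difference was 0.74, 0.62 and 0.18 in these classes. 7 of the 22 had reached the limit of 1 TPM through siCNOT4 alone, so a difference was built into their choice.

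**Figure D3:**
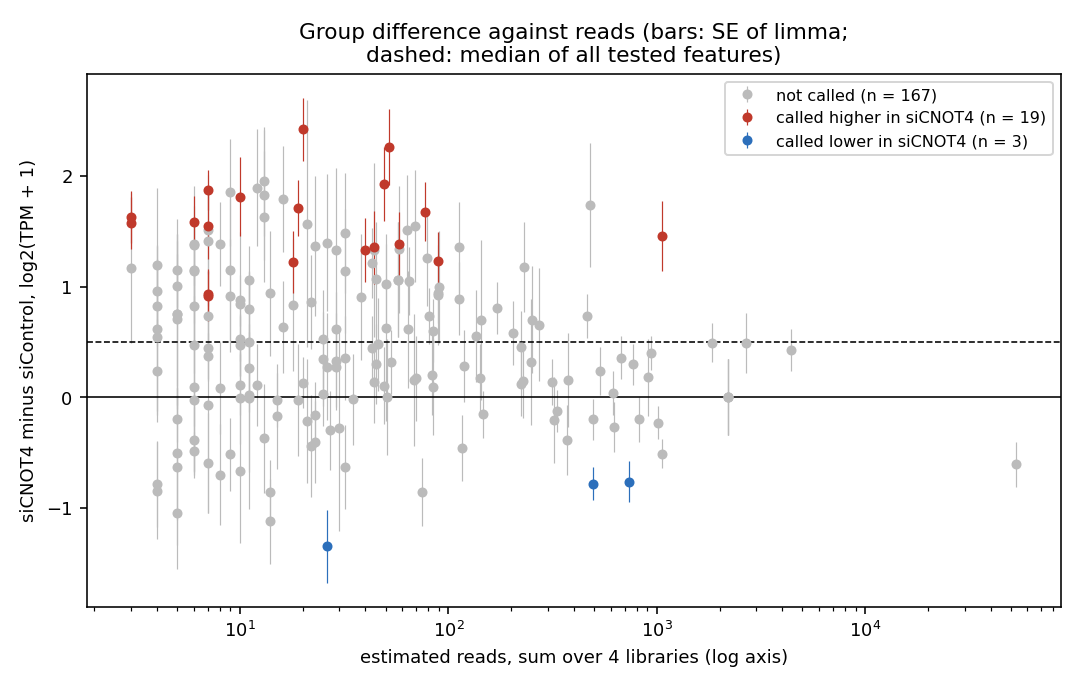
Log2(TPM + 1) difference, siCNOT4 minus siControl, of each microRNA locus feature against its estimated reads summed over 4 libraries (log axis), with limma standard errors; the dashed line is the median of all tested features, 0.50. The 3 called members with 100 or more reads are MIR3655, higher, and MIR4751 and MIR3198-2, lower; the split of calls shifts to 8 higher and 7 lower with median ratio scaling.

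The best-covered member that rose was MIR3655 (chr5:140647844-140647926, plus strand), of which 97.6% of the bases lie in a coding exon of IK, a splicing factor gene. It stood at 187 and 92.6 TPM in siControl and 352 and 375 TPM in siCNOT4, or 139.7 ± 66.7 TPM in siControl and 364 ± 16.3 TPM in siCNOT4 (SD, n = 2). Its difference was 1.46 (SE 0.32, adjusted p = 0.043) on the log2 scale, and 0.96 without siControl replicate 2. It no longer passed with median ratio scaling, a pseudocount of 0.1, no filter or a mean of at least 5 TPM (adjusted p from 2.6e-09 to 0.085 over all 12 alternatives). The siControl libraries themselves differed, with replicate 2 the lower, and did not overlap siCNOT4. IK stood at 198 and 197 TPM in siControl and 415 and 429.7 TPM in siCNOT4 and rose by 1.09 (SE 0.13, adjusted p = 0.023), with siControl libraries that hardly differed.

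2 well-covered members fell. MIR4751 (chr19:49933064-49933137, plus strand) lies in a coding exon of ATF5, a transcription factor of the stress response. It stood at 153 and 166 TPM in siControl and 93.1 and 92.0 TPM in siCNOT4, or 159.8 ± 9.18 TPM in siControl and 92.5 ± 0.775 TPM in siCNOT4 (SD, n = 2), and its difference was -0.78 (SE 0.15, adjusted p = 0.036). It no longer passed with a pseudocount of 0.1, either other filter, or without siCNOT4 replicate 1 or 2 (adjusted p from 0.00014 to 0.33 over 12 alternatives). ATF5 stood at 77.7 and 88.7 TPM in siControl and 43.9 and 48.5 TPM in siCNOT4 and also fell, with a difference of -0.83 (SE 0.18, adjusted p = 0.044); neither overlapped between the groups. MIR3198-2 (chr12:54231397-54231476, minus strand), in the 3′ UTR of CBX5, the gene of heterochromatin protein HP1 alpha, stood at 198 and 235 TPM in siControl and 112 and 142 TPM in siCNOT4. It fell, with a difference of -0.76 (SE 0.18, adjusted p = 0.048). It no longer passed in the same alternatives or with median ratio scaling (adjusted p from 0.0015 to 0.43 over 12). CBX5 stood at 61.2 and 34.4 TPM in siControl and 75.5 and 71.7 TPM in siCNOT4 with a difference of 0.67 (adjusted p = 0.13), so the member and its host differed in sign.

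MIR147B and its host moved together at lower coverage. The hairpin (chr15:45433050-45433129, plus strand) lies in an exon of C15orf48, a gene for a small mitochondrial protein. It stood at 11.6 and 13.6 TPM in siControl and 27.3 and 34.9 TPM in siCNOT4, from 12 and 16 estimated reads in siControl and 27 and 34 in siCNOT4, and rose by 1.23 (SE 0.26, adjusted p = 0.042). The call was lost under both scalings, with a pseudocount of 0.1, with both other filters and without either siCNOT4 library (adjusted p from 0.00079 to 0.47 over 12 alternatives). C15orf48 stood at 2.59 and 2.71 TPM in siControl and 7.31 and 7.66 TPM in siCNOT4 and rose by 1.22 (adjusted p = 0.037). MIR4712, in an exon of the non-coding RNA GABPB1-AS1, stood at 7.53 and 9.12 TPM in siControl and 26.7 and 31.0 TPM in siCNOT4, a difference of 1.68 (SE 0.26, adjusted p = 0.026). It no longer passed under both scalings, with a mean of at least 5 TPM or without either siCNOT4 library (adjusted p from 9.8e-05 to 0.29). GABPB1-AS1 stood at 7.21 and 4.72 TPM in siControl and 6.84 and 6.59 TPM in siCNOT4, a difference of 0.17 (adjusted p = 0.67).

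The other called members above 15 reads had 18 to 58 reads in all. MIR5187, with 5.26% of its bases in an exon of the mitochondrial import gene TOMM40L, stood at 6.09 and 3.58 TPM in siControl and 18.1 and 23.7 TPM in siCNOT4. TOMM40L stood at 23.7 and 21.2 TPM in siControl and 26.9 and 31.6 TPM in siCNOT4, and the differences were 1.93 (adjusted p = 0.029) and 0.36 (adjusted p = 0.26). MIR548AA1, annotated in an intron of ATAD2 but on a row beside PALMD, stood at 3.51 and 3.09 TPM in siControl and 14.7 and 26.1 TPM in siCNOT4, a difference of 2.27 (adjusted p = 0.025). MIR2110, in the 5′ UTR of C10orf118 (now CCDC186), stood at 1.03 and 0.906 TPM in siControl and 7.56 and 12.0 TPM in siCNOT4, which is 1 read in each siControl library and 7 and 11 reads in siCNOT4. Its host stood at 8.93 and 2.49 TPM in siControl and 16.2 and 15.5 TPM in siCNOT4, with a difference of 1.52 (adjusted p = 0.080) beside 2.43 (adjusted p = 0.023) for the member. MIR4321 lies mostly in a coding exon of AMH, the anti-Müllerian hormone gene. It stood at 8.68 and 9.35 TPM in siControl and 2.03 and 4.10 TPM in siCNOT4. It had 9 and 11 estimated reads in siControl and 2 and 4 in siCNOT4. It was the remaining member that fell, with a difference of -1.35 (adjusted p = 0.049); AMH stood at 2.83 and 2.46 TPM in siControl and 1.81 and 2.48 TPM in siCNOT4, a difference of -0.22 (adjusted p = 0.46).

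Of the 71 intronic members, 10 passed (14.1%, all higher in siCNOT4), near the share of all features, and 4 of these reached 1 TPM through siCNOT4 alone. MIR3653, which overlaps SNORD125 in an intron of the clathrin adaptor gene AP1B1, stood at 5.61 and 4.94 TPM in siControl and 13.3 and 17.9 TPM in siCNOT4. MIR570 stood at 4.77 and 4.20 TPM in siControl and 10.0 and 16.9 TPM in siCNOT4 and MIR3936 at 3.51 and 3.71 TPM in siControl and 8.84 and 12.7 TPM in siCNOT4. In these 3 both siCNOT4 libraries were above both siControl libraries on 40 to 58 reads, with differences of 1.39 (adjusted p = 0.041), 1.36 (adjusted p = 0.049) and 1.33 (adjusted p = 0.043). AP1B1 differed by 0.73 (adjusted p = 0.079), and the other pair had no host to compare in the tables. MIR5581, in MEAF6, a subunit gene of histone acetyltransferases, stood at 2.57 and 2.27 TPM in siControl and 10.8 and 9.57 TPM in siCNOT4, and MIR3153, in the cell cycle gene CKS2, at 2.82 and 1.66 TPM in siControl and 6.92 and 6.0 TPM in siCNOT4. MEAF6 and CKS2 differed by 0.17 (adjusted p = 0.55) and 0.27 (adjusted p = 0.27), and the members by 1.71 (adjusted p = 0.025) and 1.22 (adjusted p = 0.045).

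The lowest called members rested on single reads. MIR635 stood at 0 and 0.694 TPM in siControl and 2.48 and 5.02 TPM in siCNOT4. MIR4324 stood at 1.07 and 0.944 TPM in siControl and 2.25 and 3.42 TPM in siCNOT4. MIR4263 stood at 0 and 0.819 TPM in siControl and 2.93 and 2.96 TPM in siCNOT4. Each had at most 1 read in a siControl library, and their differences were 1.81 (adjusted p = 0.036), 0.92 (adjusted p = 0.049) and 1.55 (adjusted p = 0.035). Their hosts, the autophagy gene WIPI1, SLC6A16 and BRE, a gene of BRCA1-linked complexes, differed by 1.43 (adjusted p = 0.057), 0.27 (adjusted p = 0.38) and 0.67 (adjusted p = 0.058). MIR3185, over an exon of PRAC2 on the other strand, stood at 1.13 and 1.00 TPM in siControl and 3.57 and 2.41 TPM in siCNOT4, a difference of 0.94 (adjusted p = 0.048). 4 called members were at 0 in both siControl libraries: MIR3939, with 0 and 0 estimated reads in siControl and 3 and 4 in siCNOT4, MIR1257 with 4 and 2 reads in siCNOT4, and MIR3654 and MIR1206 with 2 and 1. For MIR3654, 0 reads in siControl replicate 1 allowed up to 5.08 TPM (exact Poisson 95% limit, counting error only), above its 2.89 TPM in siCNOT4 replicate 1. No fold is given for these 4. TAF4, the host of MIR1257, and PVT1, that of MIR1206, differed by 0.41 (adjusted p = 0.40) and 0.00057 (adjusted p = 1.00). Only 4 of the 22, MIR3655, MIR3198-2, MIR4751 and MIR4712, had Poisson intervals of all siControl libraries apart from those of all siCNOT4 libraries.

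**Figure D4:**
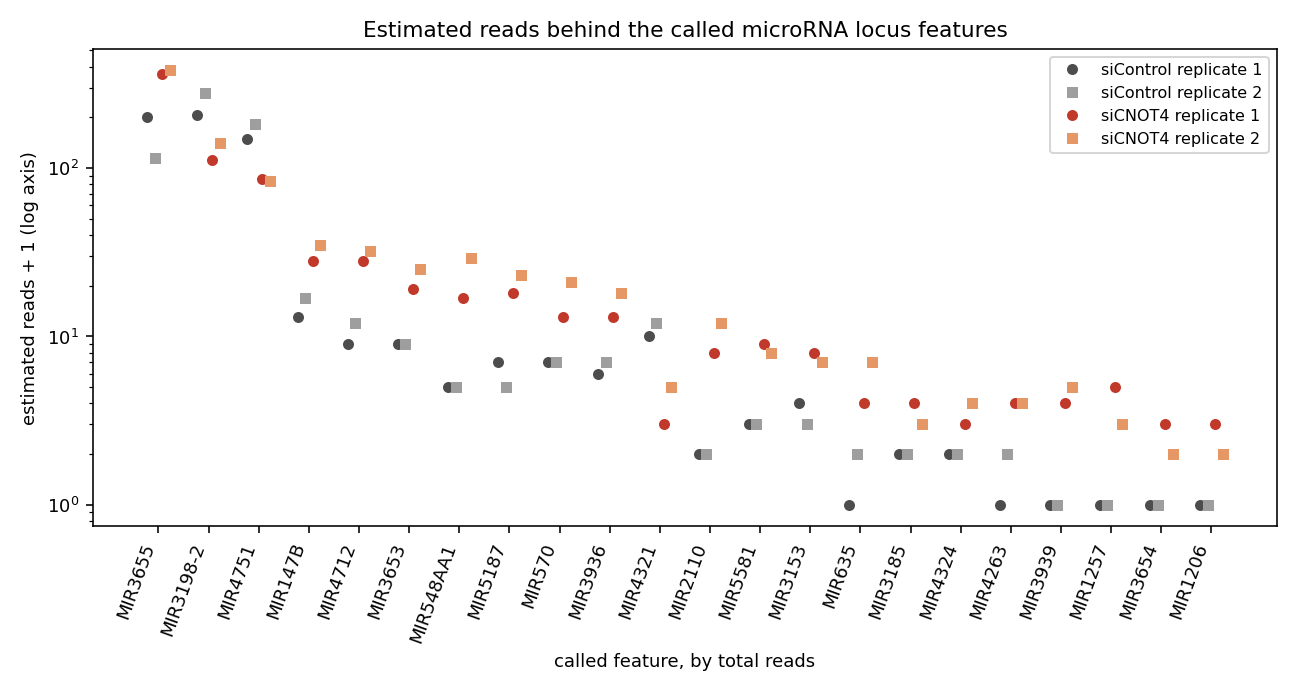
Estimated reads plus 1 (log axis) in each library for the 22 microRNA locus features that passed the limma test, in order of total reads. Only MIR3655, MIR3198-2 and MIR4751 exceed 100 reads in all, and the 4 features at the right have 0 reads in both siControl libraries.

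The differences of the members were set beside those of their hosts by place; the median member had 58 reads wholly in exons, 90 partly in exons and 11 in introns. Pearson's r across members was 0.47 over 51 pairs wholly in exons, 0.59 over 31 partly in exons and 0.33 over 63 in introns. Spearman's rho for the same pairs was 0.40, 0.63 and 0.26. With at least 100 reads, r was 0.50 over 21 members wholly in exons and 0.80 over 17 partly in exons, and rho was 0.32 and 0.81. The host's sign was shared by 14 of these 21 and 14 of these 17. Only 2 intronic members with a tested host had as many reads. These are correlations across members of 1 set of libraries, described without a test, and member and host were read in the same 4 libraries. Of the 22 called members, 16 had a tested host, and 3 of these, IK, ATF5 and C15orf48, also passed in the same direction. Among all 14208 features tested, 12.6% passed in either direction, and 16 hosts are too few to set apart from that share. With median ratio scaling ATF5 still passed, and IK and C15orf48 kept their sign without passing.

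**Figure D5:**
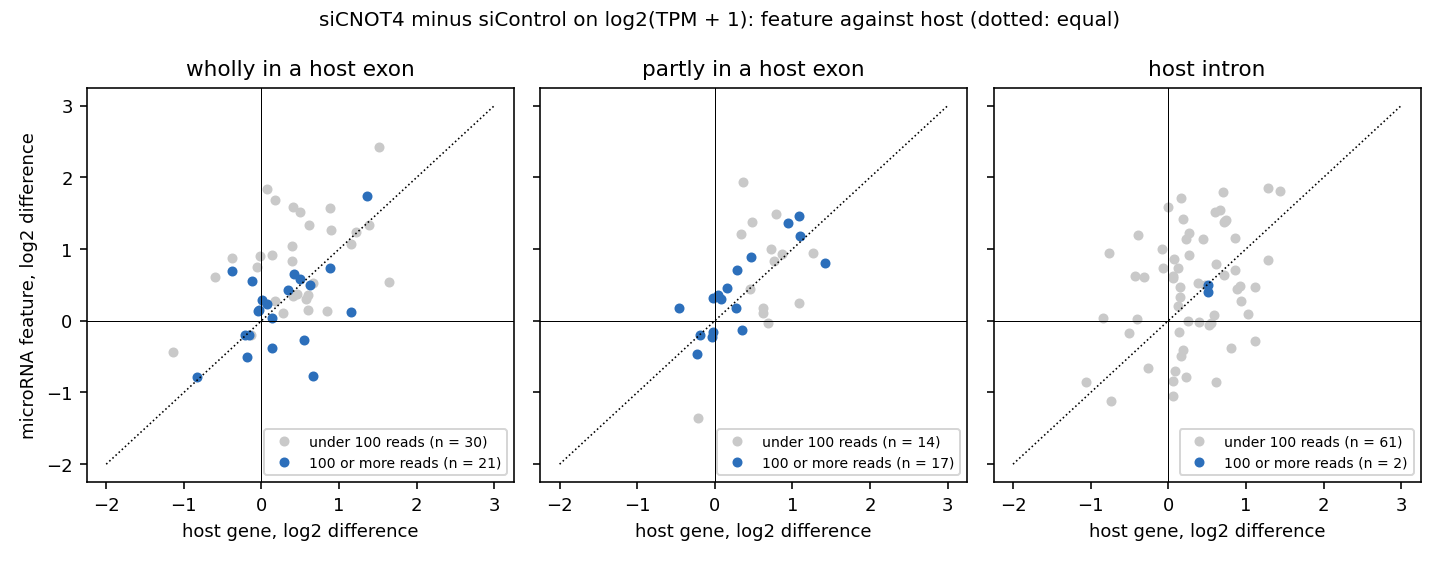
Log2(TPM + 1) difference, siCNOT4 minus siControl, of each member (vertical) against that of its host gene (horizontal), wholly in a host exon, partly in one, or in an intron; blue points have 100 or more estimated reads and the dotted line marks equal differences. For the blue points r was 0.80 partly in exons and 0.50 wholly in exons, and nearly all intronic members are grey.

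Some hosts passed where their members did not, and the following were named after their values were seen. Among the 167 members that did not pass, 12 had a host that did, and 9 of these 12 had the sign of the host. Not all of the 167 had a tested host, and 12.6% of all 14208 features tested passed. MIR639, over an exon end of the fatty acid elongation gene TECR, stood at 42.5 and 17.3 TPM in siControl and 58.7 and 67.8 TPM in siCNOT4, a difference of 1.18 (adjusted p = 0.085) beside 1.10 (adjusted p = 0.043) for TECR. MIR5010, in ATP6V0A1, a subunit gene of the vacuolar proton pump, stood at 22.5 and 17.6 TPM in siControl and 35.8 and 35.5 TPM in siCNOT4, a difference of 0.81 (adjusted p = 0.064) beside 1.42 (adjusted p = 0.039). MIR761, in the metallopeptidase gene NRD1, stood at 31.4 and 12.7 TPM in siControl and 57.7 and 48.6 TPM in siCNOT4, a difference of 1.36 (adjusted p = 0.069) beside 0.95 (adjusted p = 0.044). All 3 members had siCNOT4 libraries above siControl, with siControl replicate 2 the lowest library.

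Among the 11 members lower in both siCNOT4 libraries, some differed in sign from the host. MIR196A1, in an intron of the homeobox gene HOXB7, stood at 33.1 and 20.4 TPM in siControl and 15.05 and 12.9 TPM in siCNOT4, a difference of -0.85 (adjusted p = 0.094), while HOXB7 stood at 42.5 and 44.0 TPM in siControl and 63.9 and 70.4 TPM in siCNOT4, a difference of 0.62 (adjusted p = 0.065). MIR4784 in MZT2A and MIR1227 in PLEKHJ1, on 14 reads each, differed by -0.85 (adjusted p = 0.080) and -1.12 (adjusted p = 0.084), and their hosts by -1.06 (adjusted p = 0.041) and -0.74 (adjusted p = 0.062). Outside annotated genes, the highest of 7 members was MIR621, at 59.5 and 30.4 TPM in siControl and 43.0 and 52.1 TPM in siCNOT4, with overlapping groups and a difference of 0.15 (adjusted p = 0.74); none of the 7 passed.

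The genes that make and use microRNAs are not members and were read from the same test. None of the 24 tested of 25 listed biogenesis and silencing genes passed the limma test, against 12.6% of all features. Both siCNOT4 libraries lay above both siControl libraries in 21 (87.5%) and below in 1, RAN (4.17%), against 66.4% and 10.6% of all features. At an unadjusted p under 0.05, 14 (58.3%) passed, against 42%. Their median difference was 0.69, beside 0.50 over all features, and it fell to 0.20 with 14 of 24 positive under median ratio scaling and to 0.35 with 20 positive, and 1 call, under quantile normalization. DROSHA, the Microprocessor nuclease, stood at 51.0 and 37.3 TPM in siControl and 61.5 and 64.0 TPM in siCNOT4, a difference of 0.51 (adjusted p = 0.13). DICER1 stood at 34.4 and 10.8 TPM in siControl and 53.6 and 52.2 TPM in siCNOT4, with the low value in siControl replicate 2 and a difference of 1.40 (adjusted p = 0.089). AGO3, an Argonaute, stood at 7.98 and 3.84 TPM in siControl and 17.9 and 16.5 TPM in siCNOT4, a difference of 1.46 (adjusted p = 0.051), and AGO2, the Argonaute that cuts targets, differed by 1.39 (adjusted p = 0.079). TNRC6A and TNRC6B, the scaffolds that bind CCR4-NOT, differed by 1.10 (adjusted p = 0.083) and 1.20 (adjusted p = 0.067). RAN, whose GTPase powers export of the precursor by XPO5, stood at 1709 and 1773 TPM in siControl and 1306 and 1291 TPM in siCNOT4, a difference of -0.42 (adjusted p = 0.058) that kept its sign under both scalings. LIN28A, a blocker of let-7 maturation, was at or near 0, and LIN28B differed by 1.04 (adjusted p = 0.10).

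Dedicated host transcripts, the 14 HG features that the naming rule left out, were not chosen by level. The members were, so no ranking of these features against the members is given. 4 reached 1 TPM and were tested, and none passed. MIR22HG stood at 1.10 and 0.820 TPM in siControl and 1.89 and 3.15 TPM in siCNOT4, a difference of 0.83 (adjusted p = 0.063), with both siCNOT4 libraries higher. MIR17HG stood at 3.21 and 3.20 TPM in siControl and 2.52 and 3.20 TPM in siCNOT4, MIR210HG at 1.21 and 1.53 TPM in siControl and 1.51 and 1.07 TPM in siCNOT4 and MIR600HG at 4.54 and 2.83 TPM in siControl and 5.69 and 6.25 TPM in siCNOT4. MIRLET7DHG stood at 0.106 TPM on average. The hairpin of MIRLET7D, a member chosen by its level and at a mean of 6.86 TPM, lies in an intron of MIRLET7DHG.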

How the data were processed

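Each library was deposited as a table of 20457 features with 1 TPM value each. Per the submitters' processing notes, FastQC 0.11.2, STAR 2.5.3a, featureCounts and hg19 were used; the gene annotation and the strand setting are not given in the sources used here. The deposited TPM values sum to 1000000 in each library, so a depth is not stated; for microRNA features, reads were estimated as TPM times feature length divided by the step that 1 read gives, with a length searched between 40 and 400 bases where the annotated one did not give whole reads. Intervals are exact Poisson at 95% and leave out all other error. The sample labels gave the groups.

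Differences were tested with limma 3.58.1 in R 4.3.3 (lmFit, eBayes with trend, prior degrees of freedom 4.22) on log2(TPM + 1), 2 libraries against 2, over features with a mean of at least 1 TPM, with Benjamini-Hochberg adjustment over all 14208 features and a threshold of 0.05. A log2 difference is siCNOT4 minus siControl on that scale, which understates changes of low features. The limma step was first tested on simulated data. An exact permutation test of 2 against 2 cannot go below p = 0.33, so none was used. Positions come from GENCODE 29 on GRCh38, not hg19, and were matched by symbol; hairpins were compared with its transcripts by BLAST 2.17.0. The row order of the tables was used to find features that stand among genes of another chromosome; no host comparison was made for those. A host is a gene that overlaps the hairpin on the same strand.

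Values in every library are given for members that passed the test and for the 25 with the highest means (44 in all), with the difference of the host where one was tested; the host of 1 of them is not reported here. Other members were named after their values were seen. The members, lists and tests were chosen with earlier results of these data known. Alternatives were other pseudocounts, filters, scalings, a replicate block, robust eBayes, leaving out each library and subsets of members.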

Additional observations from a re-analysis of the deposited data

How the results depend on the processing

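The count of members that passed, 22, was within 1.5 times under robust eBayes (21) and under both scalings (15 and 16, with other splits of direction). It was 9 of 189 with a pseudocount of 0.1 (558 of all features), 36 with a pseudocount of 5 (3079), 7 with no filter on mean TPM (908) and 3 of 103 with a mean of at least 5 TPM (147). With only members of at least 20 reads it was 12 of 109, and without members in exons of the same strand 13 of 97, where fewer members enter by construction; without members on rows of another chromosome and counting equal values once, chosen after seeing the data, it was 20 of 178. Leaving out 1 library gave 30 to 127 of the 189 members and 450 to 11311 of the 14208 features tested. With all 4 libraries the counts were 22 and 1792. The lowest count of members and the lowest count of features came from different libraries left out. The median member difference ranged from 0.22 to 0.74. The cause was not tested. With 1 library in a group that library is assumed to vary like the others, so no conclusion is drawn from these counts. The median member difference was 0.076 with median ratio scaling and 0.046 with quantile normalization, each of which centres the libraries. The median of member minus host difference, added after seeing the data, was 0.10, and 0.040 to 0.34 with 1 library left out. With replicate number as a replicate block, 82 members and 3655 features passed; the numbers are labels only, and same-numbered libraries' deviations correlated at 0.17.

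None of the 22 changed sign under any alternative in which they were tested. Alternatives were run for 44 members. Among those of them that did not pass, the sign reversed with median ratio scaling for MIR4709 (-0.062), MIR3652 (-0.13), MIR5047 (-0.059), MIR3064 (-0.16), the MIR1244 loci (-0.55), MIR3656 (-0.20), MIR4761 (-0.25), MIR3940 (-0.37), MIR1181 (-0.31) and MIR1182 (-0.51). It did so with quantile normalization for the MIR1244 loci (-0.096), MIR3940 (-0.032), MIR1181 (-0.0080) and MIR1182 (-0.21), and with a pseudocount of 5 for the MIR1244 loci (-0.0014). Leaving out 1 library gave ranges across 0 for the MIR1244 loci (-0.56 to 0.56), MIR198 (-0.47 to 0.075), MIR3940 (-0.36 to 0.73), MIR4700 (-0.56 to 0.020), MIR611 (-0.42 to 0.014), MIR1181 (-0.021 to 0.50), MIR1182 (-0.20 to 0.28) and MIR939 (-0.27 to 0.019). Without crossing 0, it moved the difference by over 1.5 times for MIR4426 (-0.91 to -0.30), MIR4657 (0.80 to 2.69), MIR4709 (0.066 to 0.92), MIR3652 (0.16 to 0.69), MIR3656 (0.12 to 0.60), MIR4761 (0.082 to 0.51), MIR5047 (0.29 to 0.70), MIR3064 (0.26 to 0.53), MIR4721 (-0.34 to -0.12), MIR4647 (-0.76 to -0.013) and, of the 22, MIR3655 (0.96 without siControl replicate 2). Depth limits the low members: 80 of the 189 rested on under 20 reads over 4 libraries, where 1 read is worth about 1 TPM.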
